A study of Mus musculus with 90 samples.

Results

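The 10 genes described here encode a cholesterol carrier, 8 steroid converting enzymes and an electron donor, which between them turn cholesterol into progestins, androgens and estrogens. They are Star, Cyp11a1, Hsd3b1, Cyp17a1, Cyp19a1, Hsd17b1, Hsd17b7, Akr1c18, Srd5a1 and Fdx1. They were taken by name and matched by Entrez Gene identifier, and all 10 were found among the 20414 genes of the table. The libraries came from untreated wildtype female C57BL/6 mice (C57BL/6J in the methods of the study), 10 weeks old by the sample labels (those methods give a younger age). Their phase was read from vaginal secretions stained with methylene blue. By those methods, serum estrogen and progesterone were also measured to help determine the phase. Estrus, the phase around ovulation, and diestrus, the phase in which corpora lutea are active, had 3 mice each. For each phase there were 3 libraries in each of 15 tissues, 90 libraries in all, and since the same mice gave every tissue, the tissues are not independent of each other. The replicate numbers of the labels do not tie an estrus library to a diestrus library.

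Steroid synthesis starts in the mitochondrion, where cholesterol brought to the inner membrane is cut to pregnenolone. Pregnenolone is turned into progesterone, androgens are made from these by the theca cells around a follicle, and granulosa cells aromatise the androgens to estrogens. After ovulation the follicle wall becomes the corpus luteum, which makes mostly progesterone. Follicle stimulating hormone acts on granulosa cells through the receptor Fshr, luteinising hormone acts on theca and luteal cells through Lhcgr, and the nuclear receptors Nr5a1 and Nr5a2 switch on many of the genes of the pathway.

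Promoter windows are shown for 4 of the genes, those that hold the short string TCAAGG on either strand. The string is part of a longer sequence bound by Nr5a1, which was abundant in all 6 ovary libraries. That longer sequence stood in none of the windows. The RefSeq windows (GRCm38.p6) run from 250 bases before to 50 bases after a transcription start, and 10 windows matched 7 of the 10 genes. No window was used for Star, Cyp17a1 and Hsd17b1. Capitals mark TCAAGG, the first letters of the sequence TCAAGGTCA that Nr5a1 is known to bind, on either strand, so that a match on the opposite strand reads CCTTGA. The motif was chosen after the windows had been seen.
Cyp11a1 promoter, chr9:58014702-58015001, plus strand: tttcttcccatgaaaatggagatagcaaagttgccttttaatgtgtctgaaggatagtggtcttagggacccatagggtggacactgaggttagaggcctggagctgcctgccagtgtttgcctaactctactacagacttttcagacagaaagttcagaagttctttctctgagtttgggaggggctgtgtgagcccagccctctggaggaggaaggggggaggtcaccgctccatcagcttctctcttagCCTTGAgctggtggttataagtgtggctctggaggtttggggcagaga
Hsd3b1 promoter, chr3:98859745-98860044, minus strand: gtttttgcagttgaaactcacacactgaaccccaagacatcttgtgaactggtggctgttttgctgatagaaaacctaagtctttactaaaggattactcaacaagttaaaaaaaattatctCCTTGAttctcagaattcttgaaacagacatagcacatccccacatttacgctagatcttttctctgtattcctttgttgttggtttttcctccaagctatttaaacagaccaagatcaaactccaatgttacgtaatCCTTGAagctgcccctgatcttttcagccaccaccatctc
Fdx1 promoter, chr9:51963553-51963852, minus strand: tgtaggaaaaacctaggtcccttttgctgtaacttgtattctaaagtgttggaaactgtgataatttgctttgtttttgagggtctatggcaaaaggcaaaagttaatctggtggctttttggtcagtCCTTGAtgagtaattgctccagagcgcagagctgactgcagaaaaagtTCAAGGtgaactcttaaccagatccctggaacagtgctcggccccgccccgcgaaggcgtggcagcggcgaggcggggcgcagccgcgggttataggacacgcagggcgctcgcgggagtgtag
Hsd17b7 promoter, chr1:169969156-169969455, minus strand: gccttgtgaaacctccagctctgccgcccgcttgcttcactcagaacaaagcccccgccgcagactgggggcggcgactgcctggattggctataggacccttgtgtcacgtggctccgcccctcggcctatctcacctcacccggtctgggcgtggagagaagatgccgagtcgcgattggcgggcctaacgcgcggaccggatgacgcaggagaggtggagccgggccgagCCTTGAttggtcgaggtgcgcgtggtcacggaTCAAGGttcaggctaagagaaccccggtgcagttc
The motif TCAAGG stood in 4 of the 10 windows, those printed, and not in the windows of Cyp19a1, Akr1c18 and Srd5a1. It stood in 14.4% of all 32851 windows. It lay 2 times in the windows of Hsd3b1, Fdx1 and Hsd17b7 and once in that of Cyp11a1, where it began at position 3 counted from the start site. The Cyp11a1 window belongs to one of 2 starts of that gene, and the other had no match. The longer strings AAGGTCA, which overlaps the end of the site, and TCAAGGTCA itself stood in none of the 10 windows, against 4.72% and 0.423% of all windows. A match is a description of the letters, not of binding.

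Values are FPKM, that is, fragments counted relative to transcript length and library size, so that levels of different genes can be compared. The approximate depth, inferred from the smallest steps between low values, was 8.96M to 18.3M reads in 89 libraries and 15.9M to 17.2M in the ovary. At that depth 52.3% to 79.0% of the low values used lay within 0.2 reads of a whole number. The methods of the study give a higher number of reads per sample. BAT (brown adipose tissue) estrus replicate 3 stood apart, with 12048 genes listed at 0 against 2404 to 4820 in the other libraries, and it lists every one of the 10 genes except Fdx1 at 0. The ovary libraries carried the markers of their cells, with summed levels of 1613 to 3046 FPKM for 6 granulosa cell genes and 102 to 222 FPKM for 6 oocyte genes, against at most 154 and 4.85 FPKM in any other library. Ovary estrus replicate 3 also held oviduct epithelium, with Ovgp1, the oviduct glycoprotein, at 1563 FPKM against 2.35 to 39.7 FPKM in the other 5 ovary libraries, and its oocyte sum was the lowest of the 6. Ovary diestrus replicate 3 held 50.3 FPKM of the liver gene Alb, against at most 0.09 FPKM in the others. In such bulk tissue, fewer cells of a type and less RNA per cell cannot be told apart.

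The ovary had the highest mean of the 15 tissues for 9 of the 10 genes, and the exception was Akr1c18, highest in kidney. Together the 10 genes took 1.31% to 1.93% of the summed FPKM of an ovary library and 0.00262% to 0.0693% of that of any other library. All 10 were called higher in the ovary than in the mean of the other 14 tissues, by limma on all 90 libraries. Here and below a gene is called where its adjusted p does not exceed 0.05 and its log2 difference reaches 1. The same call was made for 19.9% of the 17289 genes tested. The log2 differences ran from 2.63 (SE 0.15, adjusted p = 2.95e-24) for Srd5a1 to 11.20 (SE 0.39, adjusted p = 2.57e-36) for Hsd3b1. Their median was 5.51, beside 0.35 for all genes tested. This fit takes 1 spread for each gene over all tissues and has no term for the mouse, although the same mice gave every tissue. Its p-values therefore do not measure the spread among mice or among ovaries alone. Hsd3b1 and Cyp11a1 had the largest and second largest difference of all genes in that comparison. For 6 genes, Star, Cyp11a1, Hsd3b1, Cyp19a1, Hsd17b1 and Fdx1, the lowest ovary library was above the highest of the 84 other libraries.

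**Figure D1:**
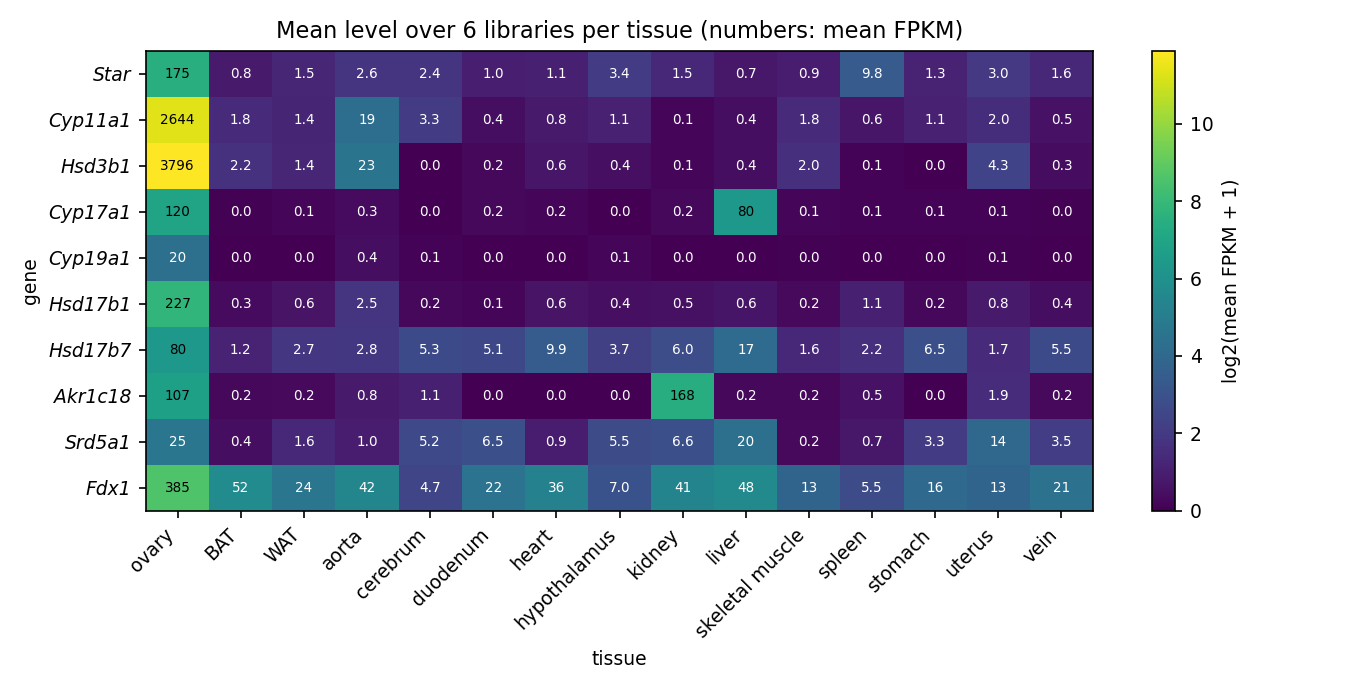
Mean FPKM of each gene (rows) in each tissue (columns) over 6 libraries, 3 in estrus and 3 in diestrus, with the number in each cell and the colour giving log2(mean FPKM + 1). The ovary column is the highest in every row but that of Akr1c18, where kidney stands at 168 and the ovary at 107, and Cyp17a1 has a high value in liver, at 79.8.

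Of the genes that supply pregnenolone, Star, whose protein moves cholesterol to the inner mitochondrial membrane, had 257, 153 and 174 FPKM in the 3 estrus ovaries and 124, 149 and 192 FPKM in the 3 diestrus ovaries. Cyp11a1, the side chain cleavage enzyme that makes pregnenolone, had 2239, 1881 and 2553 FPKM in estrus and 2417, 3124 and 3647 FPKM in diestrus. For both genes the phases overlapped. Star had a mean of 195 ± 55.0 (SD, n = 3) in estrus against 155 ± 34.8 (SD, n = 3) in diestrus. Its log2 fold change, estrus minus diestrus, was 0.32 (SE 0.24, adjusted p = 0.858). Cyp11a1 ranked 4 of 20414 genes by its mean in the ovary. The estrus libraries averaged 2224 ± 336 (SD, n = 3) against 3063 ± 617 (SD, n = 3) for diestrus, a log2 fold change of -0.45 (SE 0.20, adjusted p = 0.838).

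Fdx1, the ferredoxin that hands electrons to Cyp11a1, had 459, 457 and 329 FPKM in estrus and 282, 411 and 374 FPKM in diestrus. It was the steadiest of the 10 genes over the 6 ovary libraries, with a coefficient of variation of 18.4%. Its highest library was 1.63-fold above its lowest, and the phases overlapped, with a log2 fold change of 0.22 (SE 0.20, adjusted p = 0.886).

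Hsd3b1, which turns pregnenolone into progesterone, had 4235, 3246 and 3294 FPKM in estrus and 2796, 4745 and 4458 FPKM in diestrus. Its mean of 3796 FPKM ranked 2 of all genes in the ovary. Diestrus replicate 1 was the lowest and diestrus replicates 2 and 3 the highest, so the phases overlapped, and the log2 fold change was -0.13 (SE 0.24, adjusted p = 0.941). No near-identical relative reached a mean of 1 FPKM in the ovary: Hsd3b6 was at 0.99 FPKM and Hsd3b2 and Hsd3b3 were lower. Reads shared between such relatives may be divided between them by the authors' estimate, so a value of about 1 FPKM beside 3796 FPKM is uncertain.

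Cyp17a1, which makes androgen precursors and is an enzyme of theca cells, had 2.39, 105 and 82.8 FPKM in estrus and 231, 203 and 97.7 FPKM in diestrus. Estrus replicate 1 lay far below the other 5 libraries, and without it the estrus mean was 94.0 FPKM instead of 63.4 FPKM. Estrus replicate 2 was above diestrus replicate 3, so the phases overlapped. Its fold change of -2.42 on the log2 scale (SE 1.25, adjusted p = 0.846) became -0.83 (SE 0.37, adjusted p = 0.915) without estrus replicate 1. The single theca marker listed, Insl3, had 13.6, 20.4 and 13.3 FPKM in estrus and 33.3, 40.2 and 22.4 FPKM in diestrus. Insl3 was thus low in estrus replicate 1 but not lower there than in estrus replicate 3, and its adjusted p was 0.747. The part that theca cell content has in the Cyp17a1 values was not tested.

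**Figure D2:**
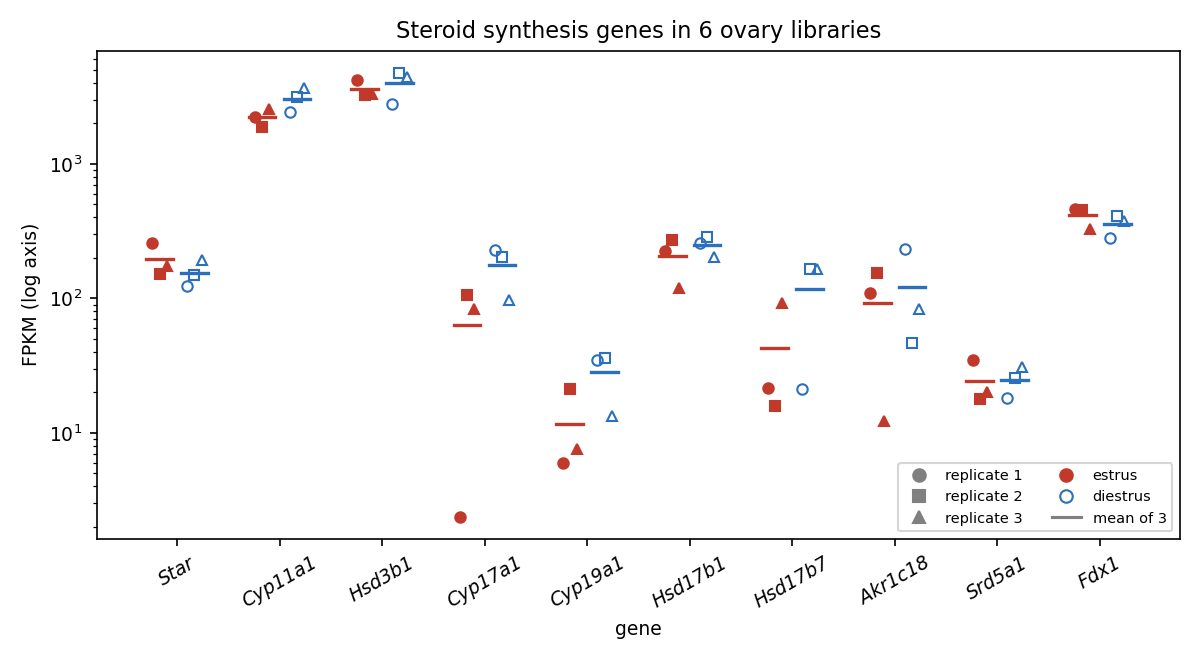
FPKM (log axis) of the 10 genes in the 6 ovary libraries, estrus filled red and diestrus open blue, with the marker shape giving the replicate number and the bar the mean of 3. Hsd3b1 and Cyp11a1 are the 2 highest of the 10 genes in every library, and Cyp17a1 in estrus replicate 1, at 2.39, is the lowest point of the plot.

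Of the genes that make estrogens, Cyp19a1, the aromatase of granulosa cells, had 5.93, 21.3 and 7.64 FPKM in estrus and 34.8, 36.2 and 13.4 FPKM in diestrus. The 2 lowest libraries were in estrus and the 2 highest in diestrus, but estrus replicate 2 was above diestrus replicate 3. The estrus mean was 11.6 ± 8.40 FPKM and the diestrus mean 28.1 ± 12.8 FPKM (SD, n = 3 each), with a log2 fold change of -1.28 (SE 0.52). It was the only one of the 10 with an unadjusted p under 0.05 in limma, at 0.0443, and its adjusted p was 0.828. An unadjusted p under 0.05 was found for 5.96% of the 13587 genes tested in the ovary. That share was 17.7% without estrus replicate 3 and 2.87% without diestrus replicate 2. Fshr had 9.54, 22.6 and 8.07 FPKM in estrus and 31.1, 28.2 and 16.6 FPKM in diestrus. The 3 ovaries with the lowest Cyp19a1 were thus the 3 with the lowest Fshr, a match noticed after the values were seen.

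Hsd17b1, which makes estradiol from estrone in granulosa cells, had 223, 272 and 120.3 FPKM in estrus and 257, 287 and 205 FPKM in diestrus. Estrus replicate 3, the library with oviduct genes, was the lowest. Estrus minus diestrus gave -0.35 on the log2 scale (SE 0.30, adjusted p = 0.884) with it and -0.0043 (SE 0.16, adjusted p = 0.994) without it.

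Hsd17b7, which reduces estrone in luteal cells and also has a step in cholesterol synthesis, had 21.7, 15.8 and 91.7 FPKM in estrus and 21.4, 166 and 165 FPKM in diestrus. Its values lay in a low range of 3 libraries and a high range of 3, and the split did not follow the phase: estrus replicate 3 was high and diestrus replicate 1 low. It varied the most of the 10 genes in the ovary, with a coefficient of variation of 89.3%. The log2 fold change was -1.38 (SE 0.93, adjusted p = 0.850). The same 3 libraries were the 3 highest for Lhcgr, which had 79.5, 88.2 and 260.3 FPKM in estrus and 109, 271 and 255 FPKM in diestrus. They were also the 3 highest for Scarb1, the receptor that takes up cholesterol from lipoproteins, which had 290, 288 and 454 FPKM in estrus and 267, 472 and 579 FPKM in diestrus. These matches were noticed after the values were seen, and the share of all genes with the same split was not counted.

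Of the genes that inactivate or reduce steroids, Akr1c18, which turns progesterone into a form with little activity and is known from regressing corpora lutea, had 111, 155 and 12.3 FPKM in estrus and 235, 46.7 and 84.1 FPKM in diestrus. Its 3 lowest libraries were the 3 in which Hsd17b7 was highest, which was likewise noticed after the values were seen. The log2 fold change was -0.68 (SE 0.99, adjusted p = 0.933), and it was 0.42 (SE 0.61, adjusted p = 0.765) without estrus replicate 3, so its sign rested on that library. Of its relatives, Akr1cl had a mean of 1577 FPKM, Akr1c14 one of 123 FPKM and Akr1c13 one of 3.75 FPKM in the ovary, so sharing of reads among them leaves the Akr1c18 value uncertain there too. Srd5a1, which reduces testosterone and progesterone to their dihydro forms, had 34.9, 17.9 and 20 FPKM in estrus and 18.1, 25.45 and 31.1 FPKM in diestrus. Its phases overlapped widely, with a log2 fold change of -0.061 (SE 0.28, adjusted p = 0.979).

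**Figure D3:**
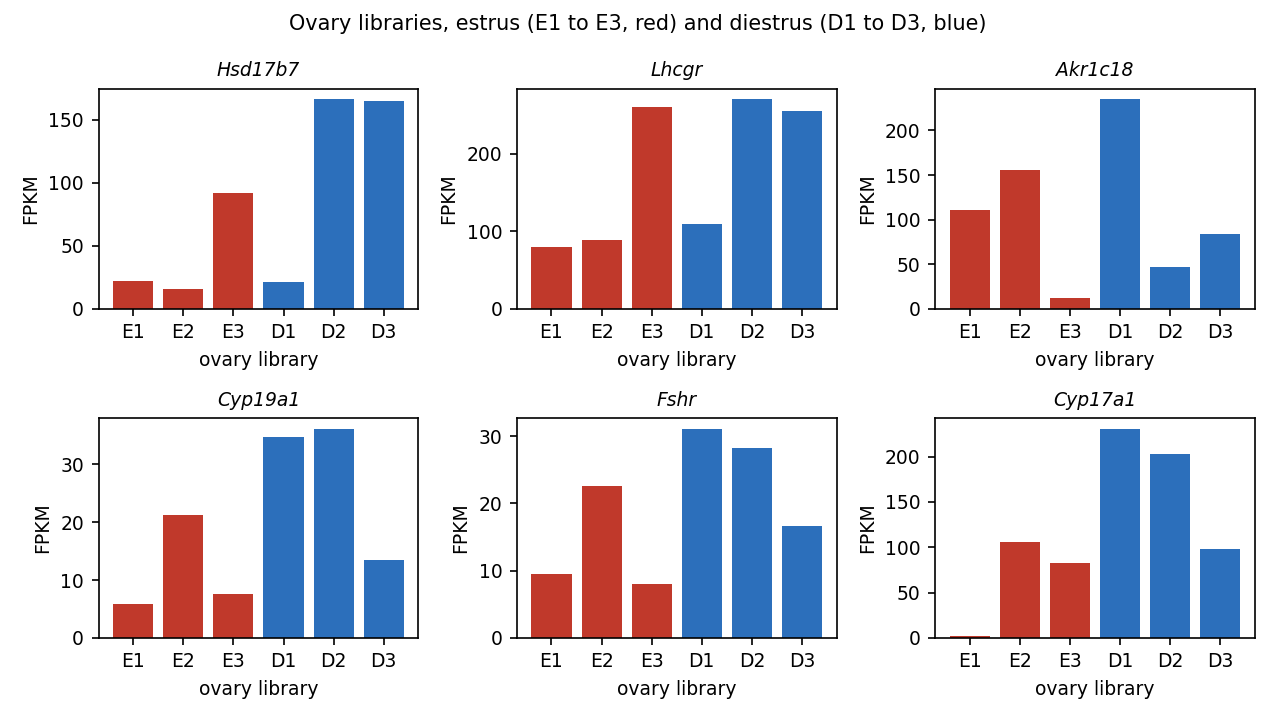
FPKM in each ovary library, estrus in red (E1 to E3) and diestrus in blue (D1 to D3), for 4 of the genes and for the receptors Lhcgr and Fshr. The genes shown were picked after their values were seen. Hsd17b7 and Lhcgr are highest in E3, D2 and D3, where Akr1c18 is lowest, Cyp19a1 and Fshr are both lowest in E1, E3 and D3, and Cyp17a1 is near 0 in E1.

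None of the 10 genes was called between estrus and diestrus in the ovary by limma, and no gene of the 13587 tested was called, which is 0%. Without estrus replicate 3, 4 genes were called, none of them one of the 10. The log2 fold change was below 0 for 8 of the 10 and above 0 for 2, with a median of -0.40 beside 0.014 for all genes tested. The phases overlapped for all 10 genes, whereas 8.13% of all genes tested had every estrus library above every diestrus library and 5.58% every estrus library below. With 3 libraries against 3, an exact permutation test of a single gene cannot give a p below 0.1. Over the 6 libraries the coefficients of variation of Cyp17a1, Cyp19a1, Hsd17b7 and Akr1c18 were 66.6% to 89.3%, while those of the other 6 genes were below 30%. All 90 libraries were also fitted together by limma, so that the spread was shared with the other tissues. Cyp17a1 (adjusted p = 0.000566) and Cyp19a1 (adjusted p = 0.000102) were then called lower in estrus, as were 0.104% of the 17289 genes tested in that fit. Cyp19a1 averaged at most 0.367 FPKM in any other tissue, and Cyp17a1 at most 0.253 FPKM outside ovary and liver. These 2 adjusted p-values therefore do not measure the spread among ovaries alone. The Cyp17a1 difference also shrank without estrus replicate 1, as given above. In the 6 ovary libraries alone, leaving out 1 library moved the fold change of Star between 0.098 (without estrus replicate 1) and 0.48, that of Fdx1 between 0.065 (without diestrus replicate 1) and 0.38, and that of Hsd17b7 between -2.34 (without diestrus replicate 1) and -0.89 (without diestrus replicate 2), all on the log2 scale.

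**Figure D4:**
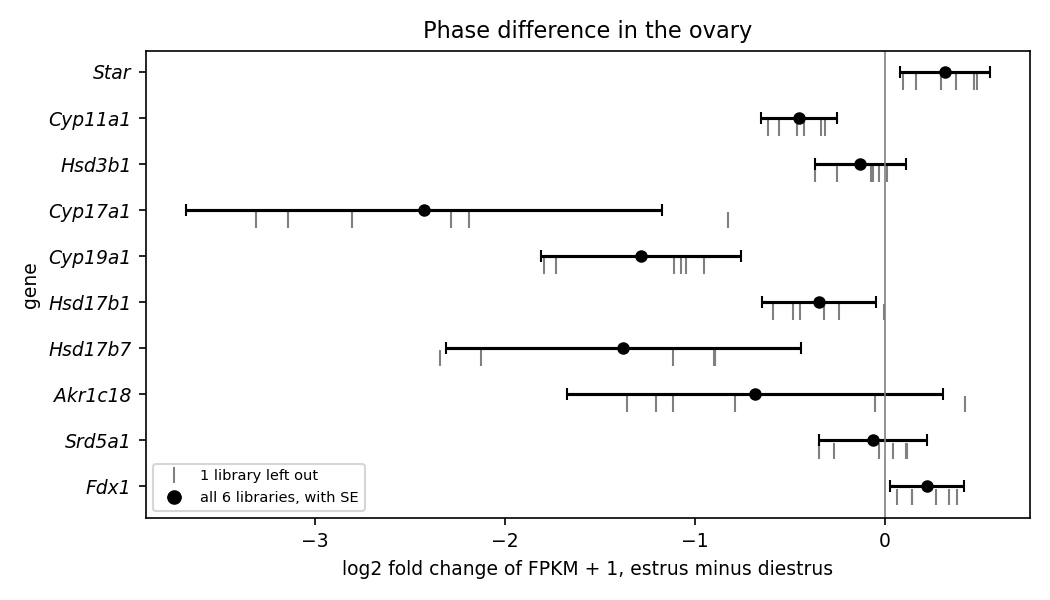
Log2 fold change of FPKM + 1 in the ovary, estrus minus diestrus, for each gene from the 6 libraries (point, with its standard error as the bar) and after leaving out each library in turn (grey ticks). Cyp17a1 moves from -2.42 to -0.83 in the tick without estrus replicate 1, and the ticks of Hsd3b1, Akr1c18 and Srd5a1 lie on both sides of 0.

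Other genes of the pathway were taken from 4 lists, of which 52 genes are in the table and 43 were tested in the ovary. None was called in either direction. Their median log2 fold change was 0.011. Of the 43, 7 had an unadjusted p under 0.05 in limma, 2 had every estrus library above every diestrus library and 4 every estrus library below. The shares of all genes tested were 5.96%, 8.13% and 5.58%. All 10 genes of cholesterol supply were tested, with Scarb1, Soat1, which esterifies cholesterol for storage, and Npc2, which carries it out of lysosomes, the most abundant at 391.7, 96.3 and 69.9 FPKM. None had an unadjusted p under 0.05. All 5 redox partners were tested, led by Cyb5a at 481 FPKM, Fdxr, the reductase of Fdx1, at 239 FPKM and Cyb5r3 at 127 FPKM, and none had an unadjusted p under 0.05. Of 23 other steroid enzymes, 22 are in the table and 13 were tested, led by Akr1c14, Cyp1b1, which hydroxylates estrogens, at 82.7 FPKM and Hsd17b11 at 46.0 FPKM. Of these 13, Hsd11b1 and Srd5a2 had every estrus library above and Hsd17b12 every estrus library below (adjusted p = 0.782, 0.828 and 0.795).

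All 15 regulators were tested, with Lhcgr, Nr5a1 and Nr5a2 the most abundant at 177, 135 and 116 FPKM. Nr5a1, the nuclear receptor known for driving steroid enzyme genes, had 119.9, 123 and 103 FPKM in estrus and 155, 157 and 151 FPKM in diestrus. Its phases did not overlap, with a log2 fold change of -0.43 (SE 0.11, adjusted p = 0.747). Gata4 and Ptgfr also had every estrus library below every diestrus library, with log2 fold changes of -0.31 and -0.86 and an adjusted p of 0.828 and 0.747. In the comparison of ovary with the other 14 tissues, 21 of 48 pathway genes tested were called higher and 2 lower, beside 19.9% and 5.15% of all genes, and 12 of the 15 regulators were called higher.

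Markers of the cells of the ovary were read in the same libraries, and none was called between the phases. The summed level of 5 luteal genes was 364 to 639 FPKM in estrus and 1015 to 1311 FPKM in diestrus without overlap, most of it from Sfrp4, Lhcgr and Prlr. Sfrp4 alone had 192, 403 and 273 FPKM in estrus and 822, 697 and 926 FPKM in diestrus (adjusted p = 0.643 in limma). Lhcgr, with means of 143 and 212 FPKM, and Prlr, with 56.8 and 61.1 FPKM, overlapped between the phases. The gap in the sum thus came mostly from Sfrp4 and does not stand for the list as a whole. Parm1, another luteal gene, went the other way, with 12.0 to 14.2 FPKM in estrus and 6 to 6.27 FPKM in diestrus. Of the granulosa genes the most abundant, Inha, Amh and Inhbb, had means of 1879.5, 172 and 165 FPKM, and Inha had a log2 fold change of -0.49 (adjusted p = 0.837). An unadjusted p under 0.05 in limma was found for 3 of the 5 luteal, 2 of the 6 granulosa and 0 of the 6 oocyte genes, beside 5.96% of all genes tested. The phases did not overlap for 3, 0 and 0 of them, beside 8.13% of all genes with estrus higher and 5.58% with estrus lower. Lhcgr, Prlr, Ptgfr, Fshr and Foxl2 are also among the regulators, so Ptgfr and Fshr enter the unadjusted counts of both. The part of luteal and granulosa cell content in the values of the 10 genes was not tested. Of 6 adrenal cortex genes, Cyp11b2 was listed at 0 in all 6 ovaries and Cyp11b1 was at 5.36 FPKM in estrus replicate 1, 1.51 FPKM in estrus replicate 2 and at most 0.23 FPKM in the others. From the same list, Mrap averaged 94.8 FPKM in estrus and 79.2 FPKM in diestrus. Akr1b7, Cyp21a1 and Mc2r averaged at most 1.21 FPKM in either phase. No gene of these lists, or of those for oviduct epithelium, white adipocytes, hepatocytes and neurons, was called in the ovary, and no adrenal medulla or uterus gene was tested there, since none averaged 1 FPKM.

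Outside the ovary, Cyp17a1 and Akr1c18 were each high in another tissue as well. Cyp17a1 was high in liver, with 50.5, 121 and 70.7 FPKM in estrus and 52.2, 97.2 and 87.3 FPKM in diestrus. The ovary mean of 120.3 FPKM and the liver mean of 79.8 FPKM overlapped in their libraries, and no other tissue had a mean above 0.253 FPKM. Liver listed Cyp11a1 and Hsd3b1 at or below 0.58 FPKM in every library, so Cyp17a1 was found there without them. Its phases overlapped, with a log2 fold change of -0.01 (SE 0.35, adjusted p = 0.997). Of the relatives, Hsd3b3 had a mean of 128 FPKM, Hsd3b2 11.6, Akr1c6 596, Akr1c14 82.6 and Akr1c13 56.6 FPKM in liver.

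Akr1c18 was highest in kidney, with 276, 138 and 293 FPKM in estrus and 57.0, 143 and 103 FPKM in diestrus. The 2 highest libraries were in estrus, but estrus replicate 2 lay below diestrus replicate 2. The log2 fold change was 1.23 (SE 0.38), with an unadjusted p of 0.0117 in limma and an adjusted p of 1.00. Its kidney and ovary values overlapped, and uterus came next at 1.89 FPKM. Relatives were abundant in kidney, with Akr1c21 at 650.3 FPKM, Akr1c14 at 35.1, Akr1c13 at 7.99, Hsd3b3 at 46.5 and Hsd3b2 at 31.4 FPKM, so sharing of reads among the Akr1c genes leaves the Akr1c18 value uncertain there. Of the adrenal cortex genes, Cyp11b1 and Cyp11b2 were listed at 0 in all 6 kidney libraries. Akr1b7 averaged 2.87 FPKM in estrus and 1.63 FPKM in diestrus there, and Mrap 0.32 and 1.15 FPKM. Cyp21a1 and Mc2r averaged at most 0.077 FPKM in either phase. The part of adrenal tissue in the kidney values was not tested.

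Star had its second highest level in spleen, with 12, 10.2 and 6.85 FPKM in estrus and 8.14, 5.87 and 15.6 FPKM in diestrus. Every spleen library was above every library of hypothalamus, the next tissue, at 3.36 FPKM. Nr5a1 was detected in spleen too, at 3.34 to 7.07 FPKM, while Cyp11a1 and Hsd3b1 reached at most 0.94 and 0.27 FPKM there. From hypothalamus downwards the Star means of neighbouring tissues overlapped, except between cerebrum at 2.42 FPKM and vein at 1.61 FPKM. Its lowest mean was 0.705 FPKM, in liver.

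Srd5a1 and Hsd17b7 were spread over many tissues. Srd5a1 had means of 24.6 FPKM in ovary, 19.6 FPKM in liver and 14.5 FPKM in uterus, whose libraries overlapped, and means of at least 1 FPKM in 10 of the 15 tissues. In uterus it had 25.2, 8.13 and 21.5 FPKM in estrus and 5.77, 11.4 and 14.8 FPKM in diestrus, with a log2 fold change of 0.67 (SE 0.49, adjusted p = 0.897). Hsd17b7 had a mean of at least 1 FPKM in all 15 tissues, with 80.2 FPKM in ovary, 16.9 FPKM in liver and 9.90 FPKM in heart. Liver and heart did not overlap. The ovary libraries at 15.8 and 21.7 FPKM in estrus and at 21.4 FPKM in diestrus lay within the liver range of 13.6 to 22.2 FPKM. Fdx1 was likewise found in every tissue, from 4.66 FPKM in cerebrum to 51.8 FPKM in BAT, 7.44-fold below the ovary mean of 385 FPKM. Its order ran in steps that did not overlap between ovary and BAT, heart and WAT (white adipose tissue), and uterus and hypothalamus.

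Outside the ovary, Cyp11a1 and Hsd3b1 were high or low in single libraries. In aorta, estrus replicate 1 had 109.7 FPKM of Cyp11a1 and 134 FPKM of Hsd3b1, while the other 5 aorta libraries had at most 0.79 and 0.47 FPKM. That library also held Star at 9.22, Hsd17b1 at 13.1, Cyp19a1 at 1.95, Inha at 104 and Nr5a1 at 5.44 FPKM, which was 5.27%, 5.76%, 9.81%, 5.54% and 4.03% of their ovary means, beside 4.15% for Cyp11a1 and 3.54% for Hsd3b1. Other ovary genes stood there at 9.04% (Fshr), 4.28% (Amh), 2.44% (Lhcgr) and 0.849% (Zp3, an oocyte gene) of their ovary means. The aorta mean of Cyp11a1 was 18.7 FPKM with this library and 0.462 FPKM without it, and that of Hsd3b1 22.6 FPKM and 0.206 FPKM. The aorta is therefore the second tissue in order for both genes, for Cyp19a1 and for Hsd17b1 through 1 library.

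Among the other libraries outside the ovary, 17 had both genes at 1 FPKM or more, 8 in estrus and 9 in diestrus. They were 5 of uterus, 4 of skeletal muscle, 3 of BAT, 3 of WAT, 1 of heart and 1 of hypothalamus, with 1.88 to 15.6 FPKM of Hsd3b1, which is 0.0495% to 0.412% of its ovary mean. The next highest library had 0.65 FPKM of Hsd3b1, and 28 of the 84 libraries outside the ovary listed it at 0. Libraries of 1 tissue and phase fell on both sides, as in skeletal muscle in estrus, where Hsd3b1 was at 0, 0 and 2.48 FPKM. The ratio of Hsd3b1 to Cyp11a1 was 0.627 to 5.81 in these 17 libraries and 1.16 to 1.89 in the ovary. The highest ratio was that of uterus estrus replicate 3, which had 15.6 FPKM of Hsd3b1 beside 2.69 FPKM of Cyp11a1 and 2554 FPKM of Ovgp1. Whether these low values come from the tissue or from ovary material was not tested.

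**Figure D5:**
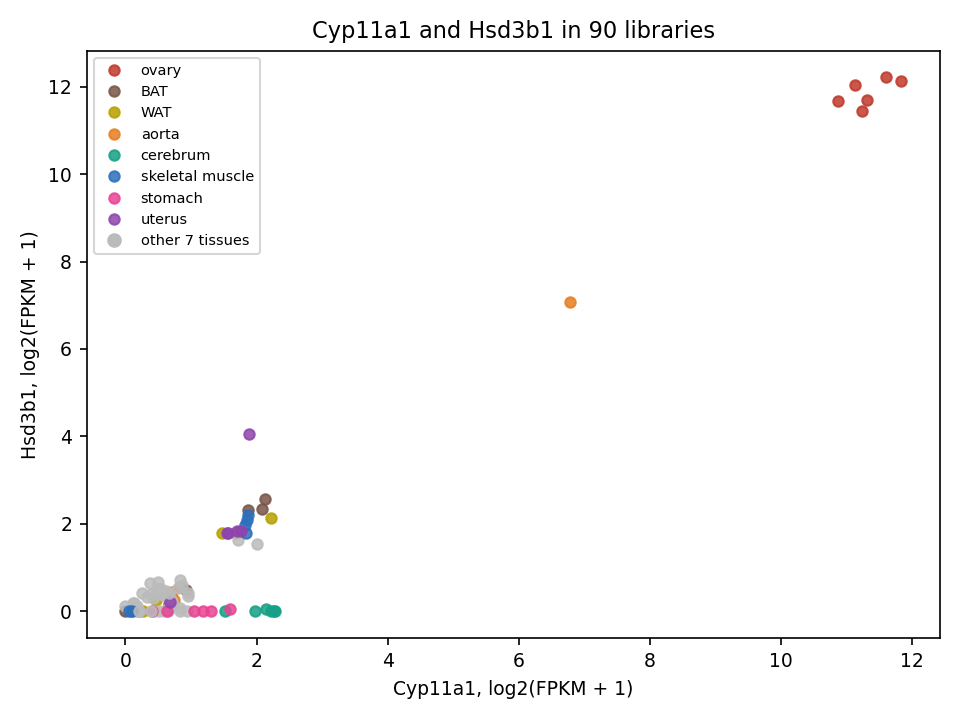
Cyp11a1 against Hsd3b1 as log2(FPKM + 1), 1 point for each of the 90 libraries, coloured by tissue. The 6 ovary libraries stand at the top right, aorta estrus replicate 1 (109.7 and 134 FPKM) stands alone between them and the rest, and the cerebrum libraries have Cyp11a1 with Hsd3b1 at or near 0.

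Cerebrum and stomach showed Cyp11a1 without Hsd3b1. In cerebrum Cyp11a1 had 2.95, 3.66 and 1.87 FPKM in estrus and 3.84, 3.81 and 3.43 FPKM in diestrus, with Hsd3b1 at most 0.04 FPKM. In stomach it had 1.06, 0.56 and 0.32 FPKM in estrus and 1.26, 2.03 and 1.48 FPKM in diestrus, again with Hsd3b1 at most 0.04 FPKM. All 3 stomach estrus libraries were below all 3 diestrus libraries, with a log2 fold change of -0.67 (SE 0.24, adjusted p = 0.671). The same held for 1525 of the 12670 genes tested in stomach, while 208 had every estrus library above.

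In the other 14 tissues none of the 10 genes was called between the phases by limma. Over these tissues 66 pairs of gene and tissue were tested, and a call was made for 0.00116% of all 171882 pairs of a gene and a tissue tested. An unadjusted p under 0.05 was found for 6 of the 66, against 7.99% of all pairs, and phases that did not overlap for 9 of the 66, against 15.1% of all pairs. In skeletal muscle these were Hsd3b1, with a log2 fold change of -1.49 (SE 0.46, adjusted p = 0.140), and Fdx1. Fdx1 had 12.7, 10.9 and 10.8 FPKM in estrus and 15.7, 16.7 and 13.6 FPKM in diestrus in muscle, with a log2 fold change of -0.39 (SE 0.10, adjusted p = 0.108). Skeletal muscle estrus replicate 3 was the one estrus library with 2.48 FPKM of Hsd3b1. Without it, Hsd3b1 (log2 fold change -2.09, adjusted p = 0.00119) and Cyp11a1 (log2 fold change -1.77, adjusted p = 0.00144) were called lower in estrus by limma, at levels of at most 3.59 FPKM. These 2 were the only genes called lower in that fit, 0.0186% of the 10735 tested. The library left out is the one that went against the difference, so these p-values do not measure the spread among the estrus muscles. With all 6 muscle libraries 20.8% of the genes tested had an unadjusted p under 0.05.

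The phase differences of ovary and uterus, both organs of the reproductive tract, were compared directly in 1 model for the 7 genes that averaged 1 FPKM or more in uterus. None of the 7 differed in its phase effect between them by the same limits. Of the 14516 genes tested, those averaging 1 FPKM or more in either tissue, 0% did. The largest difference of the 7 was that of Akr1c18, with -1.89 on the log2 scale (SE 1.30, adjusted p = 0.991). None of the 7 had an unadjusted p under 0.05 in limma, against 554 of all genes tested. Cyp17a1, Cyp19a1 and Hsd17b1 averaged under 1 FPKM in uterus. They entered the fit through their ovary level alone, so their differences are not given or ranked here.

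The genes whose pattern over the 90 libraries was most like each of the 10, by Pearson's r of log2(FPKM + 1), are given as a description, since most of the range comes from the 6 ovary libraries. For Cyp11a1 they were Hsd3b1 (r = 0.975), Mgarp (0.970) and Akr1cl (0.970). For Hsd3b1 they were Akr1cl (0.984), Mgarp (0.979) and Cyp11a1. For Star they were Cmtm2a (0.960), Fbxw13 (0.953) and Serpina3a (0.950). For Cyp19a1 they were Fshr (0.995), Nlrp4e (0.986) and Nlrp9c (0.982), and for Hsd17b1 they were Padi6 (0.983), Pramel25 (0.983) and E330034G19Rik (0.982). Every one of these partners had its highest mean in the ovary. For Cyp17a1, high in ovary and liver, they were Gm7969 (0.921), Saa2 (0.916) and Raet1d (0.883), the latter pair highest in liver. For Akr1c18 they were Folr1 (0.942), Il17f (0.930) and Hao2 (0.916), all highest in kidney. The closest genes were less alike for Hsd17b7, with Scap (0.757), Cyp17a1 (0.744) and Ccbe1 (0.741), for Srd5a1, with Fbxw9 (0.825), Fgfr2 (0.822) and Arhgap42 (0.809), and for Fdx1, with Ephx2 (0.799), Timm17b (0.790) and Acad8 (0.777).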

How the data were processed

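RNA of 15 tissues was sequenced on BGISEQ-500, and the authors aligned reads with Bowtie2 2.2.5 to GRCm38.p5 and estimated gene abundance with RSEM 1.2.8, per the labels. No unit is stated for the deposited values, which were read as FPKM made by the authors with RSEM, from their steps and library sums (353706 to 623534), without counts. Depth was approximated from 747 short genes with a read length of 50 assumed. RefSeq (GRCm38.p6) named 20265 of 20414 identifiers. The 10 genes and all lists were chosen with earlier results of these data known.

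Within each tissue, genes averaging 1 FPKM or more were compared as log2(FPKM + 1) by limma 3.58.1 (R 4.3.3) with a trend, no covariate and Benjamini-Hochberg adjustment. Fold changes on this scale understate those of low genes. Limits for a call were those of the study. Ovary against the other tissues used all 90 libraries in 30 groups and genes reaching 1 FPKM on average in some tissue, and ovary against uterus used 12 libraries. The fit was tested on simulated data. Named genes were the 10, the 3 most abundant genes of each list, the 3 genes most like each, relatives of at least 1 FPKM, and any gene called. Others named were picked after their values were seen. Alternatives were pseudocount, filter, scale, normalization, a replicate block, 1 fit of all libraries and single libraries left out. Python 3.11.15 with pandas 2.3.3, numpy 2.4.6 and matplotlib 3.10.9 made the rest.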

Additional observations from a re-analysis of the deposited data

Results flagged for a closer look

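Fdx1 was the only one of the 10 genes whose phases did not overlap in opposite directions in different tissues, among tissues where it averaged at least 1 FPKM. All estrus libraries were above all diestrus libraries in hypothalamus and vein, and all were below in skeletal muscle. The phase difference in hypothalamus minus that in skeletal muscle was 0.55 on the log2 scale (SE 0.13), and that in vein minus that in skeletal muscle was 0.75 (SE 0.18). The tissues were picked for this separation and came from the same mice, so no test of it is given. The phases did not overlap for 19.6% of all genes tested in hypothalamus, 18.2% in vein and 26.2% in skeletal muscle. Of the 16012 genes tested in at least 2 tissues, 30.9% had phases that did not overlap in opposite directions in some pair of tissues.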

How the results depend on the processing

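Fitting all 90 libraries together gave 2 genes called between the phases in the ovary (Cyp17a1 and Cyp19a1), 2 in the other 14 tissues (Cyp11a1 and Hsd17b1 in aorta, where estrus replicate 1 carried ovary genes), 2 for ovary against uterus (Cyp19a1 and Cyp17a1, both under 1 FPKM in uterus, so that the value sets the ovary difference against a level near 0) and 1 further pathway gene in the ovary (Cyp11b1), where the separate fits gave 0 each. The joint fit called 44 of 17289 genes (0.254%) in the ovary, 1.21% of all pairs in the other 14 tissues and 1.87% of genes for ovary against uterus. It takes 1 spread for each gene over all tissues, so its p-values do not measure the spread among ovaries alone. With single libraries left out, the count stayed at 0 in the ovary, at 0 for pathway genes and at 0 for ovary against uterus, ran from 0 to 2 in the other 14 tissues (2 without skeletal muscle estrus replicate 3), and stayed at 10 for ovary against the other 14 tissues. Leaving out aorta estrus replicate 1 from that comparison, chosen after seeing the data, also gave 10. Of 130 alternative log2 fold changes in the ovary, 123 kept their direction and their side of the limits, 2 passed the limits in the joint fit (Cyp17a1 at -2.42 and Cyp19a1 at -1.28), and 5 changed sign. With single ovaries left out, Srd5a1 ran from -0.34 to 0.12 and was above 0 in 3 of these fits (0.12 without replicate 2 of estrus, 0.043 without its replicate 3 and 0.11 without diestrus replicate 3), Akr1c18 ran from -1.36 to 0.42, the value without estrus replicate 3, and Hsd3b1 from -0.37 to 0.014, the value without diestrus replicate 2. The cause was not tested. With the replicate block the count was 0 in the ovary, 0 in the other 14 tissues, 0 for pathway genes, 0 for ovary against uterus and 10 for ovary against the other 14 tissues. The numbers do not pair the ovary libraries, whose deviations from the phase means correlated at -0.14, 0.092 and 0.086. Levels near 1 FPKM rest on few reads.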
